A study of Mus musculus with 8 samples.

Results

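A set of 61 protein-coding genes differed at least 8-fold between thymocytes of NOD mice and thymocytes of C57BL/6J mice and lay outside a set of named gene families and chromosome blocks. They were chosen from counts per M reads in genes (CPM), averaged over 4 libraries per strain. The higher strain mean had to be at least 2 CPM and at least 8 times the other. Among 21942 protein-coding genes listed, 10093 reached 2 CPM in a strain and 92 also passed the fold limit. Leaving out histone, histocompatibility, Trim, Zfp and interferon-inducible Ifi symbols, unnamed gene models, a short list of single genes, the Y chromosome and 1 block each on chromosomes 1, 4 and 17 removed 31 of the 92. Of the 61 that were left, 35 were higher in NOD and 26 were lower in NOD. The strain means chose these genes, so their strain differences are given as a description and not as a test.

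The cells were live CD4+ CD8+ (double-positive) thymocytes, sorted by flow cytometry from NOD/ShiLtJ (NOD) mice and from C57BL/6J mice, and their total RNA was sequenced. The libraries number 8, and each strain has the titles Rep1B_Rep1T, Rep1B_Rep2T, Rep2B_Rep1T and Rep2B_Rep2T. The labels do not say what the B and T numbers stand for, nor whether the B numbers are separate animals, and they give no age. Values of a strain are listed below in the order of these 4 titles.

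Double-positive thymocytes are the most numerous cells of the thymus. They complete their antigen receptor by joining segments of its alpha gene and are tested for how well it binds self peptides. NOD is an inbred strain in which diabetes arises by autoimmunity, and C57BL/6J is the inbred strain whose genome is the mouse reference. Inbred animals carry the same allele on both chromosomes, so a strain comparison sets 1 homozygous genome against another. Many of the genes below are known from brain, heart or germ cells rather than from the thymus.

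The NOD libraries held 23.533 to 30.371 M reads in genes and the C57BL/6J libraries 8.527 to 15.702 M. Genes of the sorted stage, such as Rag1 and Cd8a, were abundant in every library. The 10 double-positive markers summed to 12360 to 15356 CPM in NOD libraries and 16325 to 18351 CPM in C57BL/6J libraries. Among markers of other cells, 8 myeloid and dendritic genes summed to 14.2 to 27.5 CPM in NOD and 9.54 to 13.5 CPM in C57BL/6J. Csf1r, a receptor of macrophages, was the gene of these 8 that passed the strain fit, at 3.64 CPM in NOD and 0.601 CPM in C57BL/6J (edgeR adjusted p = 0.0233). The 6 thymic epithelial genes summed to 7.26 to 8.51 CPM in NOD and 4.2 to 7.35 CPM in C57BL/6J. The 6 B cell markers summed to 11.3 to 14 CPM in NOD and 10.7 to 18.3 CPM in C57BL/6J, and the 6 erythroid markers to 1.61 to 14.2 CPM in NOD and 1.34 to 5.97 CPM in C57BL/6J. The 5 mature single-positive T cell markers summed to 110 to 130 CPM in NOD and 140 to 159 CPM in C57BL/6J, and 5 NK and innate lymphoid markers to 122 to 160 CPM in NOD and 106 to 123 CPM in C57BL/6J, most of it Gata3. The part of such cells in the differences below was not tested, and in bulk RNA fewer cells of a type and less RNA per cell cannot be told apart.

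The switched genes were not abundant. Their higher strain mean had a median of 6.06 CPM, against 35.9 CPM for the other coding genes with at least 2 CPM. It reached 94.9 CPM in the 35 genes higher in NOD and 54.5 CPM in the 26 genes lower in NOD. In the strain where they were low, the mean was under 1 CPM for 30 of the 35 and 22 of the 26. The 8-fold rule itself fixes this for every member whose higher mean is under 8 CPM. The fold of means ranged from 8.72 to 97.2 with a median of 17.9 among genes higher in NOD, leaving out 2 that had no read in C57BL/6J, and from 8.16 to 409 with a median of 16 among genes lower in NOD. Every NOD library lay on 1 side of every C57BL/6J library for 59 of the 61, the exceptions being Jchain and Scara3. Among 11791 coding genes tested 16.7% were separated in this way. A fit of strain across all genes, with the libraries of 1 B number summed (edgeR quasi-likelihood test, Benjamini-Hochberg adjusted p under 0.05), called 31 of the 35 and 26 of the 26, where it called 3.37% of the coding genes tested, 1.81% as higher and 1.56% as lower in NOD. Over all 17291 genes tested 3.68% were called, 1.91% as higher and 1.78% as lower. Since the rule used the same contrast, these counts describe the choice. Slc17a8, Scara3, Cdkn1a and Jchain were not called.

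**Figure D1:**
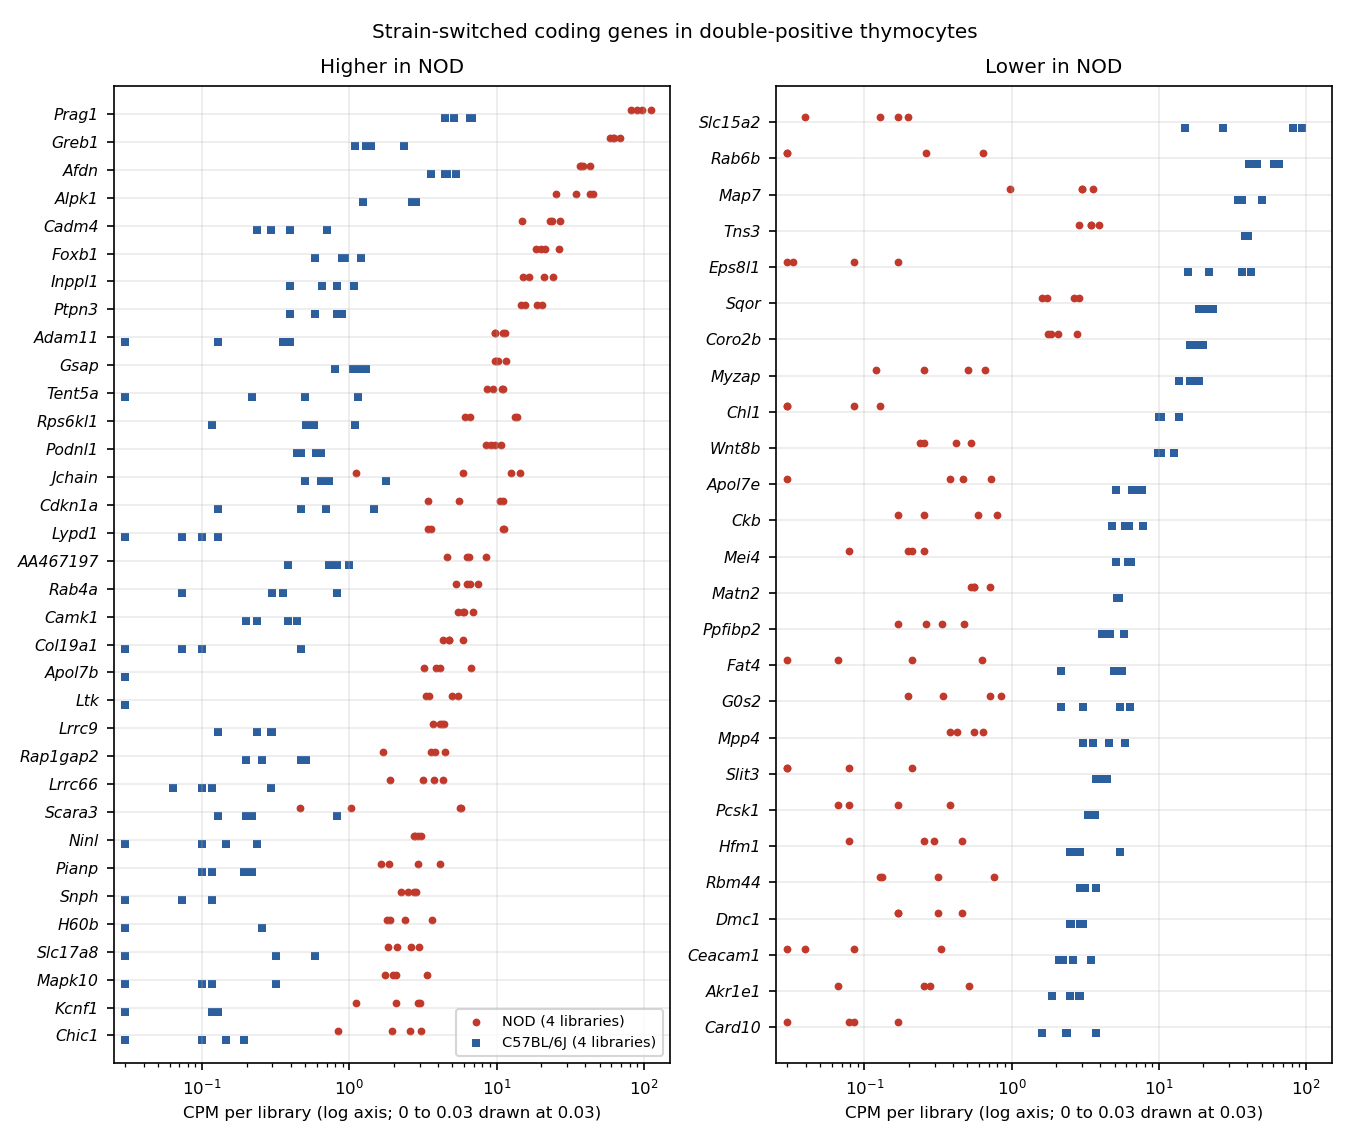
Read level of each strain-switched gene in each library, in CPM on a log axis, with NOD libraries as red circles and C57BL/6J libraries as blue squares. The left panel holds genes higher in NOD and the right panel the 26 lower in NOD, ordered by the higher strain mean. The symbols of the strains overlap only for Jchain and Scara3.

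The limit cut through a continuum. Just inside it lay G0s2, Coro2b and Mpp4 with folds of 8.16, 8.26 and 8.54. Just outside lay Hoxa7 at 0.699 CPM in NOD and 5.54 CPM in C57BL/6J (a fold of 7.92), Usp44 at 33.3 CPM in NOD and 4.31 CPM in C57BL/6J (7.74), and Smim5 at 0.266 CPM in NOD and 2.03 CPM in C57BL/6J (7.62). When 1 library was left out, 10 members could fall below the rule. Coro2b and Mpp4 did so without Rep1B_Rep2T of NOD or Rep2B_Rep2T of C57BL/6J, and Coro2b also without Rep2B_Rep1T of NOD. G0s2 was lost without Rep1B_Rep1T or Rep2B_Rep1T of NOD or either Rep1B library of C57BL/6J. Slc17a8 was lost without either Rep1B library of C57BL/6J, and AA467197 without Rep2B_Rep2T of NOD or Rep2B_Rep1T of C57BL/6J. Chic1 was lost without Rep1B_Rep2T or Rep2B_Rep1T of NOD, Mapk10 without the first of these and Akr1e1 without the second. The others were Jchain and Scara3, described below.

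Kinases, phosphatases and signalling scaffolds made up 9 of the 61, and 8 of these 9 were higher in NOD, as were 35 of all 61. Roles were assigned with earlier results of these data known, so the directions by role, here and below, are a description only. The most abundant of all was Prag1 (chr8:36094828-36147787, GRCm38), which encodes pragmin, a pseudokinase scaffold that binds the Src-inhibiting kinase Csk. It stood at 111, 97.5, 81.2 and 89.8 CPM in the NOD libraries and at 4.44, 5.16, 6.62 and 6.8 CPM in the C57BL/6J libraries. Prag1 averaged 94.9 ± 12.7 CPM in NOD and 5.76 ± 1.14 CPM in C57BL/6J (mean ± SD, n = 4 libraries per strain here and below), a fold of 16.5, and C57BL/6J thymocytes thus kept a low but counted level in every library.

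Alpk1 (chr3:127670310-127780527) encodes the alpha kinase that senses bacterial ADP-heptose and phosphorylates the adaptor Tifa. Its NOD libraries held 45.3, 43.2, 34.4 and 25.2 CPM and its C57BL/6J libraries 1.24, 2.68, 2.74 and 2.81 CPM, so that the lowest NOD library was far above the highest C57BL/6J library. The fold of means was 15.6. Gene models inside its span on the same strand were read at lower levels: 1500005C15Rik averaged 4.0 CPM in NOD and 0.131 CPM in C57BL/6J, and Gm42587 averaged 3.32 CPM in NOD and 0.28 CPM in C57BL/6J. Gm16238 averaged 3.78 CPM in NOD and 2.55 CPM in C57BL/6J. The 250 bases before its RefSeq start are shown because Alpk1 is among the most abundant genes higher in NOD whose start is overlapped by no other gene. Capitals mark a CCAAT box, whose first base is at position -48 from the start. With 35.6% G and C, this promoter is poor in both bases.
Alpk1 promoter (chr3:127780528-127780777, minus strand): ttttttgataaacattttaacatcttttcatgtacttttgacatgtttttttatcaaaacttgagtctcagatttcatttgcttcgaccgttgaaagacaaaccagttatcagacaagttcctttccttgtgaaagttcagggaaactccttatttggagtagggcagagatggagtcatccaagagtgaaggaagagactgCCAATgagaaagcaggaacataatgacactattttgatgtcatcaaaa

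Among the phosphatases, Inppl1 encodes SHIP2, which removes a phosphate from inositol lipids made by PI3-kinase. Its reads came to 16.5, 15.1, 21.0 and 24.2 CPM in the NOD libraries and 0.655, 0.397, 1.08 and 0.821 CPM in the C57BL/6J libraries. Ptpn3, a tyrosine phosphatase with a FERM and a PDZ domain, was counted at 14.7, 15.5, 20.2 and 18.8 CPM in NOD and at 0.582, 0.397, 0.892 and 0.821 CPM in C57BL/6J. Both were about equally far apart, with folds of 26 for Inppl1 and 25.7 for Ptpn3, and neither had overlapping libraries.

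The other kinases were found at lower levels. Rps6kl1, which encodes a relative of the ribosomal S6 kinases, had 6.63, 6.07, 13.3 and 13.8 CPM in NOD and 0.51, 1.09, 0.573 and 0.117 CPM in C57BL/6J, with the Rep2B libraries of NOD the higher pair. Camk1, a calcium/calmodulin-dependent kinase, averaged 6.06 ± 0.592 CPM in NOD and 0.313 ± 0.115 CPM in C57BL/6J. Mapk10, the Jun kinase best known from neurons, averaged 2.29 ± 0.735 CPM in NOD and 0.134 ± 0.133 CPM in C57BL/6J. Ltk, a receptor tyrosine kinase related to Alk, averaged 4.29 ± 1.07 CPM in NOD and had 448 reads there against 0 in C57BL/6J. With a floor of 3 counts over the strain, Ltk was at least 69.7-fold higher in NOD. The gene of this group that was lower in NOD was Card10, a scaffold that links receptors to NF-kappaB, at 0.0834 ± 0.0695 CPM in NOD and 2.52 ± 0.907 CPM in C57BL/6J.

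Adhesion, junction, matrix and guidance genes were the largest group, with 15 members, of which 6 were higher and 9 lower in NOD. Afdn (chr17:13760539-13906150) encodes afadin, which ties nectins at cell junctions to actin. It was read at 43.2, 37.0, 38.4 and 37.3 CPM in NOD and at 4.59, 5.26, 3.57 and 4.46 CPM in C57BL/6J, a fold of 8.72, the smallest among the genes higher in NOD. Cadm4 (chr7:24482023-24504539), an immunoglobulin-type adhesion molecule of the nectin-like family, had 23.6, 14.8, 23.1 and 26.8 CPM in NOD and 0.291, 0.397, 0.701 and 0.235 CPM in C57BL/6J. That is a fold of 54.4, and 10.2 CPM per kb of exon in NOD, the highest among the genes higher in NOD. Adam11, an ADAM family member without protease activity, had 11.0, 11.4, 9.81 and 9.81 CPM in NOD and 0.0, 0.397, 0.127 and 0.352 CPM in C57BL/6J. The strains were thus set apart by Cadm4 and Adam11 with hardly a read in C57BL/6J, and by Afdn as a difference in degree.

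Matrix and surface genes of lower level followed the same pattern in NOD. Podnl1, a small leucine-rich matrix protein, averaged 9.56 ± 0.934 CPM in NOD and 0.535 ± 0.0967 CPM in C57BL/6J. Col19a1, a fibril-associated collagen, averaged 4.91 ± 0.665 CPM in NOD and 0.16 ± 0.21 CPM in C57BL/6J. The 6 stroma and endothelium markers summed to 120 to 146 CPM in NOD and to at least 137 CPM in each C57BL/6J library, nearly all of it Pecam1. The others had means of 0.246 CPM in NOD and 0.216 CPM in C57BL/6J for Col1a1, 0.24 CPM in NOD and 0.0407 CPM in C57BL/6J for Col3a1, and 0.471 CPM in NOD and 0.145 CPM in C57BL/6J for Kdr. Pdgfra was at 0.068 CPM in NOD and 0 in C57BL/6J, and Cdh5 at 0.152 CPM in NOD and 0.157 CPM in C57BL/6J. Their part in the levels of Podnl1 and Col19a1 was not tested.

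In the opposite direction, Chl1, the close homologue of the neural adhesion molecule L1, was at 0.085, 0.127, 0.0 and 0.0 CPM in NOD and at 9.97, 10.3, 13.6 and 13.7 CPM in C57BL/6J. Wnt8b, a Wnt ligand of the developing forebrain, had 0.255, 0.422, 0.527 and 0.237 CPM in NOD and 10.3, 12.7, 9.87 and 10.4 CPM in C57BL/6J. Myzap, a protein of the intercalated disc in heart muscle, had 0.255, 0.506, 0.659 and 0.119 CPM in NOD and 13.6, 18.6, 16.7 and 16.3 CPM in C57BL/6J. All 3 are known chiefly from tissues other than the thymus, and each was counted in every C57BL/6J library at 9.87 CPM or more.

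The remaining 6 members of the group were lower in NOD at a smaller scale. Slit3, a secreted guidance ligand of Robo receptors, averaged 0.0729 ± 0.1 CPM in NOD and 4.16 ± 0.319 CPM in C57BL/6J, and Matn2, a matrilin of the extracellular matrix, 0.588 ± 0.0873 CPM in NOD and 5.32 ± 0.102 CPM in C57BL/6J. Fat4, a giant cadherin that binds Dchs1, had 0.212, 0.633, 0.0659 and 0.0 CPM in NOD and 2.18, 4.96, 5.48 and 5.63 CPM in C57BL/6J. Matn2 was the steadiest of these, with C57BL/6J libraries within a factor of 1.04 of each other. Ceacam1, an adhesion molecule that inhibits activated T cells, averaged 0.113 ± 0.148 CPM in NOD and 2.61 ± 0.617 CPM in C57BL/6J. Its transcript is 98.8% identical to that of Ceacam2 over 1630 bases, and Ceacam2 was listed at 0.0422 CPM in NOD and 0.0159 CPM in C57BL/6J. Ppfibp2, a liprin, averaged 0.311 ± 0.129 CPM in NOD and 4.74 ± 0.716 CPM in C57BL/6J. Mpp4, a membrane-associated guanylate kinase of photoreceptors, averaged 0.5 ± 0.118 CPM in NOD and 4.27 ± 1.24 CPM in C57BL/6J. The count of Mpp4 is uncertain, since its exons are not its own alone.

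Cytoskeletal and vesicle traffic genes numbered 9. The 5 that were lower in NOD held some of the highest levels in C57BL/6J. Rab6b (chr9:103111787-103185276), a Golgi GTPase of neurons, was counted at 0.637, 0.0, 0.263 and 0.0 CPM in NOD and at 46.5, 41.2, 60.8 and 65.2 CPM in C57BL/6J. Over all libraries this was 23 reads in NOD and 2565 in C57BL/6J, and the C57BL/6J mean was 237 times the NOD mean. Without Rep1B_Rep1T of NOD, which holds most of the NOD reads, the log2 ratio of means was -9.25 in place of -7.89. The gene model Gm37166 inside Rab6b was at 0 in NOD and 6.09 CPM in C57BL/6J.

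Map7 (chr10:20148471-20281590) encodes a microtubule protein that recruits kinesin. It had 0.977, 3.0, 3.0 and 3.56 CPM in NOD and 50.4, 36.9, 35.9 and 34.5 CPM in C57BL/6J. Eps8l1 (chr7:4460674-4480487), an actin regulator related to Eps8, had 0.085, 0.169, 0.0329 and 0.0 CPM in NOD and 15.9, 22.0, 42.3 and 36.5 CPM in C57BL/6J. Eps8l1 was close to absent from NOD, with 7 reads in all against 1415 in C57BL/6J, whereas Map7 kept 275 reads in NOD against 1921. Coro2b, a coronin that binds actin, had 2.8, 1.86, 1.78 and 2.06 CPM in NOD and 16.6, 17.5, 16.3 and 19.8 CPM in C57BL/6J.

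Tns3 (chr11:8431652-8664535) encodes a tensin, an adaptor between integrins and actin at focal adhesions. Its levels were 3.48, 3.46, 3.92 and 2.85 CPM in NOD and 38.7, 39.7, 40.6 and 38.7 CPM in C57BL/6J. The C57BL/6J libraries differed by a factor of 1.05 at most, among the tightest of all 61 genes. The Tns3 promoter is shown because Tns3 is among the most abundant genes lower in NOD whose start is overlapped by no other gene. It has 69.6% G and C, a CpG ratio of 0.837 and 4 GC boxes. Capitals mark these boxes, which start at positions -173, -95, -41 and -17.
Tns3 promoter (chr11:8664536-8664785, minus strand): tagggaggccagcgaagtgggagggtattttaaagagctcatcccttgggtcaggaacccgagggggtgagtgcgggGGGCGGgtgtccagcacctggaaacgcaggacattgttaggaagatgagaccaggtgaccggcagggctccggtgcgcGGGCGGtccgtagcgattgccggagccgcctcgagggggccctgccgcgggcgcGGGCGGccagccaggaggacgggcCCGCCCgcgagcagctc

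The 4 traffic and cytoskeletal genes higher in NOD were less abundant. Rab4a, a GTPase of recycling endosomes, averaged 6.41 ± 0.927 CPM in NOD and 0.388 ± 0.317 CPM in C57BL/6J. Rap1gap2, which switches off Rap1, averaged 3.37 ± 1.19 CPM in NOD and 0.358 ± 0.154 CPM in C57BL/6J, and Ninl, a ninein-like centrosome protein, 2.87 ± 0.144 CPM in NOD and 0.12 ± 0.0977 CPM in C57BL/6J. Snph, which anchors mitochondria in axons, had 266 reads in NOD and 2 in C57BL/6J. Scaled to library size that is a ratio of 62.1, with an exact 95% counting interval of 17 to 515.

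The 4 genes of transcription, RNA tailing and the cell cycle were all higher in NOD. Greb1 (chr12:16670615-16800886), an oestrogen-induced cofactor of the oestrogen receptor in human breast cells, had 69.3, 59.2, 63.1 and 61.6 CPM in NOD and 1.09, 1.39, 2.36 and 1.29 CPM in C57BL/6J. It was the second most abundant gene of the set in NOD, with 6507 reads there against 77 in C57BL/6J and a fold of 41.3. Foxb1, a forkhead factor of the developing brain, had 26.5, 21.3, 18.5 and 20.1 CPM in NOD and 0.582, 1.19, 0.892 and 0.938 CPM in C57BL/6J. The antisense gene B230323A14Rik, which overlaps exons of Foxb1, averaged 2.15 CPM in NOD and 0.283 CPM in C57BL/6J. Tent5a, a poly(A) polymerase, had 10.9, 11.1, 8.56 and 9.49 CPM in NOD and 0.218, 0.496, 1.15 and 0.0 CPM in C57BL/6J. Cdkn1a, the cyclin-dependent kinase inhibitor p21, had 5.52, 3.42, 10.5 and 11.1 CPM in NOD and 1.46, 0.695, 0.127 and 0.469 CPM in C57BL/6J. For Cdkn1a the libraries did not overlap, but the Rep2B libraries were the higher NOD pair.

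The Greb1 promoter is shown as that of the most abundant member with a sequence and a start clear of other genes. It has 65.2% G and C and a CpG ratio of 0.605, and holds none of the 9 motifs searched.
Greb1 promoter (chr12:16800887-16801136, minus strand): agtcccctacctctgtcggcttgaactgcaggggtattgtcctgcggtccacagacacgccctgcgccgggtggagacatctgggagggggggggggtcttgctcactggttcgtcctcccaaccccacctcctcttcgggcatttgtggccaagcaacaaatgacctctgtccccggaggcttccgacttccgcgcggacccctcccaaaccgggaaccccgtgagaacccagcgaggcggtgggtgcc

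Transport, metabolism and protein processing accounted for 10 genes, 4 higher and 6 lower in NOD. Slc15a2 (chr16:36750177-36784962), the proton-coupled carrier that takes up short peptides, had with Eps8l1 the largest folds of strain means among the 61, 409 and 407, an order that turns when reads are summed over the libraries (ratios of 393 and 433). Its NOD libraries held 0.127, 0.169, 0.198 and 0.0396 CPM, and its C57BL/6J libraries 15, 27.4, 82.0 and 93.7 CPM. The mean was 0.133 ± 0.0688 CPM in NOD and 54.5 ± 39.1 CPM in C57BL/6J, which is 409 times as high. The C57BL/6J libraries themselves spanned a factor of 6.25, with Rep2B above Rep1B. The Slc15a2 promoter is shown for the same reason. It has a CpG ratio of 0.335 and a single GC box in capitals, on the opposite strand from position -238.
Slc15a2 promoter (chr16:36784963-36785212, minus strand): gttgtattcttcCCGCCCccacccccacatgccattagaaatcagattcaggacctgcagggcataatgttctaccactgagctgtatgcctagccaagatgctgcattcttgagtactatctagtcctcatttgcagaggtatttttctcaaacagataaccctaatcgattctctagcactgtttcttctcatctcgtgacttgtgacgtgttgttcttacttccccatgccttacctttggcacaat

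Sqor, the mitochondrial enzyme that oxidises hydrogen sulfide, had 2.89, 1.6, 1.75 and 2.65 CPM in NOD and 23.5, 21.6, 20.5 and 18.8 CPM in C57BL/6J. Ckb, the creatine kinase of brain, averaged 0.452 ± 0.291 CPM in NOD and 6.2 ± 1.27 CPM in C57BL/6J. G0s2, which inhibits the fat lipase of lipid droplets, averaged 0.523 ± 0.304 CPM in NOD and 4.27 ± 1.99 CPM in C57BL/6J. These metabolic genes act in separate pathways and were each lower in every NOD library than in any C57BL/6J library. Pcsk1, a prohormone convertase, averaged 0.174 ± 0.146 CPM in NOD and 3.55 ± 0.186 CPM in C57BL/6J, and Akr1e1, an aldo-keto reductase, 0.276 ± 0.182 CPM in NOD and 2.54 ± 0.482 CPM in C57BL/6J.

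Among those higher in NOD, Gsap, the gamma-secretase activating protein, had 10.2, 11.6, 9.91 and 9.77 CPM in NOD and 0.801, 1.29, 1.15 and 1.06 CPM in C57BL/6J. AA467197, a small mitochondrial protein, averaged 6.48 ± 1.6 CPM in NOD and 0.731 ± 0.257 CPM in C57BL/6J. Slc17a8, a vesicular glutamate transporter, averaged 2.38 ± 0.515 CPM in NOD and 0.226 ± 0.283 CPM in C57BL/6J. Its C57BL/6J reads lay wholly in the Rep2B libraries, at 0.318 and 0.586 CPM. Kcnf1, an electrically silent potassium channel subunit, had 239 reads in NOD and 3 in C57BL/6J, which is 37.2-fold after scaling (counting interval 12.6 to 182).

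The 4 germ cell genes were all lower in NOD. Mei4, which is needed for the DNA breaks that start meiotic recombination, averaged 0.186 ± 0.0751 CPM in NOD and 6.0 ± 0.61 CPM in C57BL/6J. Dmc1, the meiotic recombinase, averaged 0.279 ± 0.14 CPM in NOD and 2.75 ± 0.276 CPM in C57BL/6J, and Hfm1, a crossover helicase, 0.273 ± 0.157 CPM in NOD and 3.39 ± 1.39 CPM in C57BL/6J. Rbm44, an RNA-binding protein of germ cell bridges, averaged 0.334 ± 0.297 CPM in NOD and 3.22 ± 0.365 CPM in C57BL/6J. These folds ran from 9.66 for Rbm44 to 32.3 for Mei4, and no NOD library reached the level of a C57BL/6J library for any of the 4. Spo11, which cuts the DNA that Dmc1 repairs, averaged 41.6 CPM in NOD and 53.7 CPM in C57BL/6J (log2 fold change -0.36 ± 0.21 SE). Tested were 12 other genes of meiotic recombination, a list drawn up after the values of the 4 were seen. Of these 12, 0 passed the strain fit in edgeR, where 3.37% of coding genes passed, and 0 in DESeq2. At an unadjusted p under 0.05 in edgeR stood 3 of the 12. The share of all coding genes at that unadjusted level is not given here. The median log2 fold change of the 12 was 0.43, against 0.02 over all coding genes tested.

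The apolipoprotein L family, named for a lipoprotein component of blood, gave a pair in opposite directions. Apol7b had 3.19, 4.09, 3.85 and 6.69 CPM in NOD and no read in any C57BL/6J library, at least 71.3-fold higher in NOD with a floor of 3 counts over the strain. Apol7e had 0.467, 0.38, 0.724 and 0.0 CPM in NOD and 7.72, 6.55, 5.09 and 7.27 CPM in C57BL/6J. The genes lie 251 kb apart on chromosome 15 and run on opposite strands, and their annotated transcripts are 99.3% identical over 2208 bases. The counts of each are uncertain for that reason, and how reads were shared between them was not tested. The mean of Apol7b was 4.45 CPM in NOD and 0.0 CPM in C57BL/6J, and that of Apol7e 0.393 CPM in NOD and 6.66 CPM in C57BL/6J. The 200 bases from position -250 to -51 of each are shown side by side because the likeness extends into the promoters: 195 bases of each align, 194 are identical, and capitals mark the 1 position that differs.
Apol7b promoter (chr15:77447511-77447710, minus strand): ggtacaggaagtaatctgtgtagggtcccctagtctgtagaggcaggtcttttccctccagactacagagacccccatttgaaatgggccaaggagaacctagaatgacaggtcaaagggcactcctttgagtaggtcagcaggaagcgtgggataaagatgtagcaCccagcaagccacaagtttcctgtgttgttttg
Apol7e promoter (chr15:77698639-77698838, plus strand): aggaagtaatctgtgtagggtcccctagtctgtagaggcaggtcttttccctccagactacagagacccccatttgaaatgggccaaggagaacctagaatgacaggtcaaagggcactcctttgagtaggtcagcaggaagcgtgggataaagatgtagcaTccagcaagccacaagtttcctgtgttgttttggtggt

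The last 8 members, immune, surface and other genes, were all higher in NOD. Lypd1, a lipid-anchored protein of the Ly6 type, had 11.0, 11.2, 3.56 and 3.4 CPM in NOD and 0.0728, 0.0993, 0.127 and 0.0 CPM in C57BL/6J, a fold of 97.2 that rests on 4 reads in C57BL/6J. H60b, a ligand of the activating receptor NKG2D, had 3.61, 2.4, 1.81 and 1.9 CPM in NOD, and its 4 reads in C57BL/6J all came from Rep2B_Rep1T. Pianp, a ligand of an inhibitory receptor of the PILR family, averaged 2.63 ± 1.13 CPM in NOD and 0.157 ± 0.0573 CPM in C57BL/6J. Lrrc9 and Lrrc66, leucine-rich repeat genes, averaged 4.14 ± 0.306 and 3.29 ± 1.04 CPM in NOD and 0.238 ± 0.0789 and 0.143 ± 0.101 CPM in C57BL/6J. Chic1, the only X-linked member, averaged 2.1 ± 0.954 CPM in NOD and 0.109 ± 0.0817 CPM in C57BL/6J.

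Jchain and Scara3 were the 2 members whose libraries overlapped. Jchain, the joining chain of secreted IgM and IgA, had 5.95, 1.1, 14.4 and 12.5 CPM in NOD and 0.728, 0.496, 0.637 and 1.76 CPM in C57BL/6J. Plasma cells are its usual source. The 6 B cell markers together reached 11.3 to 14 CPM in NOD and 10.7 to 18.3 CPM in C57BL/6J, most of it Cd79b at a mean of 10.1 CPM in NOD and 12.7 CPM in C57BL/6J, and their part in the Jchain level was not tested. Scara3, a class A scavenger receptor, had 1.02, 0.464, 5.66 and 5.7 CPM in NOD and 0.218, 0.199, 0.127 and 0.821 CPM in C57BL/6J. For both genes Rep2B made up most of the NOD level, and without either Rep2B library of NOD they no longer met the 8-fold rule, which Scara3 also failed without Rep2B_Rep1T of C57BL/6J.

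Differences between the B numbers of 1 strain did not enter the choice and were tested, with T libraries as replicates. Nothing in the labels says that libraries of 1 B number come from separate cultures or animals, so these p-values measure the spread between libraries, which may be technical. Each strain was read for the members that were high in it. Within NOD, 4 of the 35 members higher in NOD passed (edgeR quasi-likelihood test, Benjamini-Hochberg adjusted p under 0.05), where 8.27% of all 16478 genes tested passed. Of these 4, 3 were higher in Rep2B, as were 6.43% of all genes, and 1 was lower, as were 1.84%. Within C57BL/6J 1 of the 26 members lower in NOD passed, higher in Rep2B, where 0.237% of all genes passed, 0.103% as higher and 0.134% as lower. Genes near 0 in a strain were kept by the filter through the other strain, and were not read there. The call of Fat4 in NOD, on 22 reads in all, is left aside for that reason.

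Scara3 was higher in Rep2B of NOD by a log2 fold change of 2.93 ± 0.50 SE (edgeR adjusted p = 0.00211), and Lypd1 fell by 1.68 ± 0.30 on the log2 scale in Rep2B (edgeR adjusted p = 0.00295). Both calls held in edgeR with each NOD library left out in turn, and DESeq2 gave no adjusted p for Scara3. Cdkn1a was higher in Rep2B by 1.27 ± 0.34 (edgeR adjusted p = 0.0372) and Rps6kl1 by 1.09 ± 0.30 (edgeR adjusted p = 0.041). Without Rep1B_Rep2T their adjusted p-values in edgeR were 0.323 for Cdkn1a and 0.249 for Rps6kl1, and without Rep2B_Rep2T they were 0.112 and 0.123. Rps6kl1 also lost its call without Rep1B_Rep1T (edgeR adjusted p = 0.126) and without Rep2B_Rep1T (0.0676), and Cdkn1a without Rep2B_Rep1T (0.0578). Jchain, at 1.95 ± 0.66, did not pass (edgeR adjusted p = 0.125), although DESeq2 gave an adjusted p of 0.00736.

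Within C57BL/6J, Slc15a2 was higher in Rep2B by a log2 fold change of 1.96 ± 0.23 (edgeR adjusted p = 0.0194). Without Rep2B_Rep1T its adjusted p in edgeR was 0.184, and without Rep2B_Rep2T it was 0.316. Eps8l1 stood at 0.95 ± 0.21 in the same direction (edgeR adjusted p = 0.0601). Even in the lower C57BL/6J pair Slc15a2 was at 15 and 27.4 CPM, above the highest NOD library at 0.198 CPM. Cdkn1a and Rps6kl1 had their lowest NOD libraries at 3.42 and 6.07 CPM, above their highest C57BL/6J libraries at 1.46 and 1.09 CPM. The sizes of these gaps were not tested against the B number differences.

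**Figure D2:**
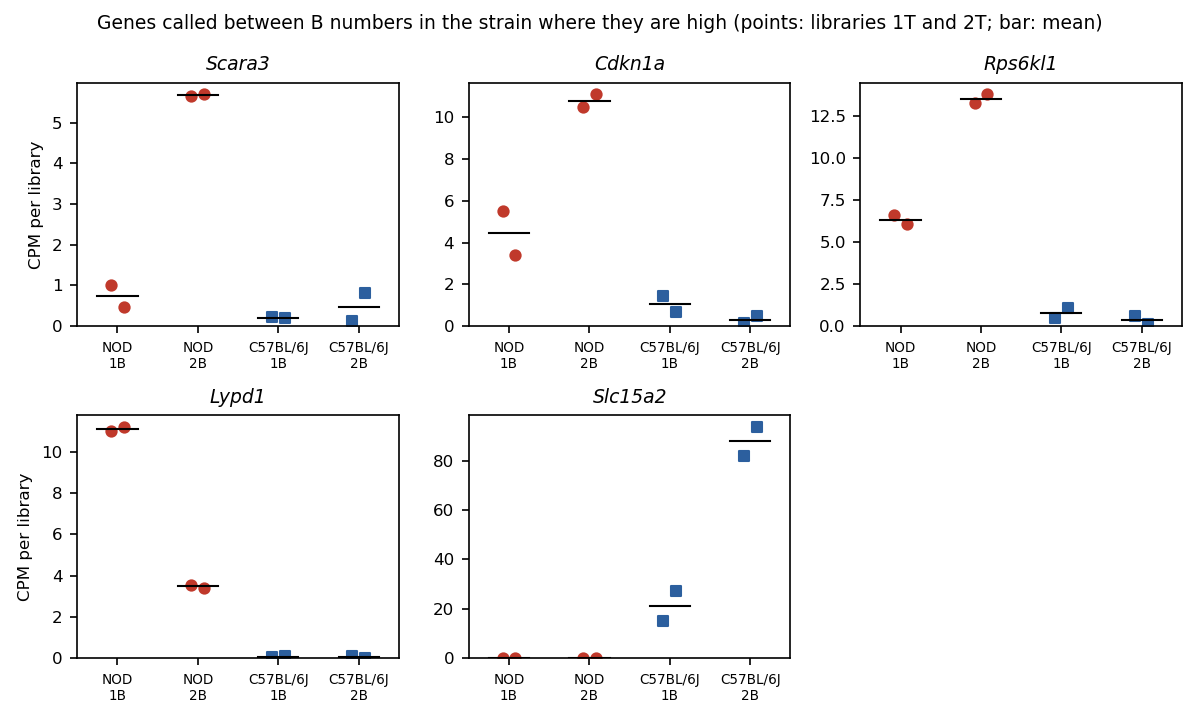
Reads of 5 members that passed the test between B numbers in the strain where they were high, in CPM per library on linear axes, NOD in red circles and C57BL/6J in blue squares. Points are the libraries Rep1T and Rep2T of each B number and bars their mean. Lypd1 at 11.0 and 11.2 CPM in Rep1B of NOD against 3.56 and 3.4 CPM in Rep2B, and Slc15a2 in C57BL/6J, show how far samples of 1 strain could lie apart.

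Whether the strain difference extends to the genes beside a member was asked with the nearest tested coding gene on each side, at a median distance of 55.1 kb. These 119 neighbours were not chosen by the rule, and 3 of them (2.52%) passed the strain fit, where 2.9% of all coding genes other than the 61 members passed. Their median absolute log2 fold change was 0.26, against 0.2 over all coding genes tested. Of the 61 members, 3 stood beside a neighbour that passed.

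All 3 neighbours that passed changed in the direction of their member. Ankrd50, an ankyrin repeat protein 402 kb from Fat4, averaged 102 CPM in NOD and 340 CPM in C57BL/6J, a log2 fold change of -1.8 ± 0.16 (edgeR adjusted p = 0.0004). Impg1, a photoreceptor matrix proteoglycan 1398 kb from Mei4, averaged 0.0706 CPM in NOD and 0.804 CPM in C57BL/6J, a change of -3.5 ± 0.72 (edgeR adjusted p = 0.0299). The call of Impg1 was lost without Rep1B of C57BL/6J (edgeR adjusted p = 0.402), without Rep2B of C57BL/6J (0.144) and without Rep1B of NOD (0.078). E030030I06Rik, 9.32 kb from H60b, averaged 7.75 CPM in NOD and 1.58 CPM in C57BL/6J, a change of 2.25 ± 0.39 (edgeR adjusted p = 0.0146, and 0.133 without Rep1B of C57BL/6J). Its symbol ends in Rik, which kept it out of the rule. Noncoding genes that overlap H60b on the opposite strand did not all follow it. Gm26740 averaged 3.74 CPM in NOD and 13.9 CPM in C57BL/6J, and Hmgb1-ps8 3.52 CPM in NOD and 15.6 CPM in C57BL/6J. Gm26528 averaged 3.97 CPM in NOD and 1.11 CPM in C57BL/6J. Tifa, the substrate of Alpk1, is also its neighbour at 9.28 kb and averaged 0.897 CPM in NOD and 0.141 CPM in C57BL/6J, a change of 2.57 ± 0.75 that did not pass (edgeR adjusted p = 0.122). Tifa was picked out after its values were seen.

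**Figure D3:**
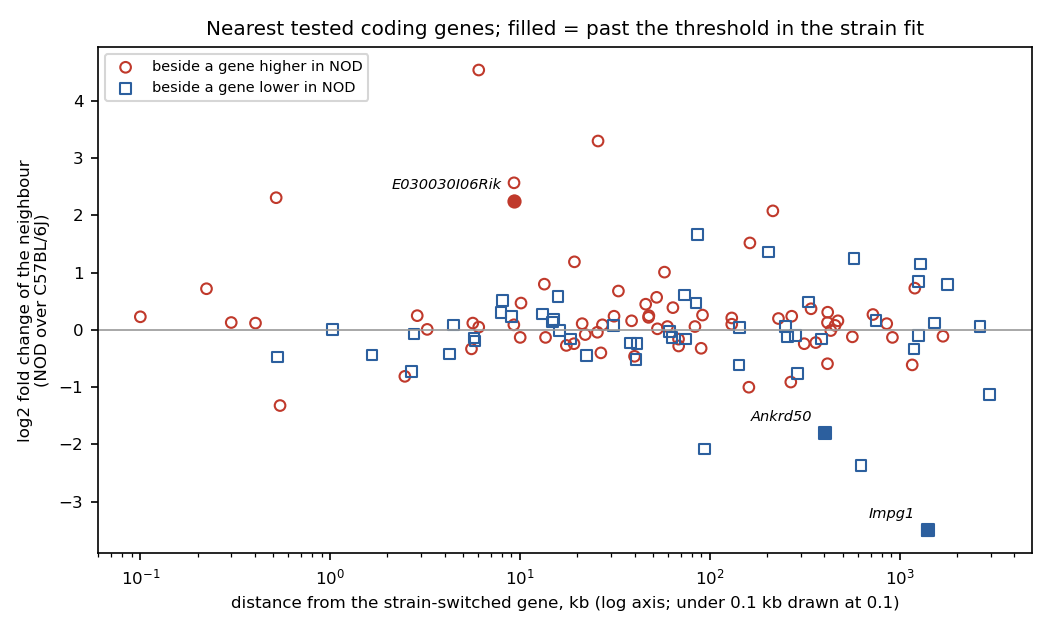
Log2 fold change (NOD over C57BL/6J) of the nearest tested coding genes against their distance from the strain-switched gene in kb on a log axis, as red circles beside genes higher in NOD and blue squares beside genes lower in NOD. Filled symbols are the 3 that passed the strain fit, Ankrd50, Impg1 and E030030I06Rik, and most others lie near 0.

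The members lay on 19 chromosomes. Members within 1 Mb of each other formed 7 pairs, of which 4 had the same direction. Greb1 and Kcnf1, 371 kb apart, were both higher in NOD, as were Ninl and Snph at 551 kb, and Card10 and Dmc1 at 758 kb were both lower. Others went opposite ways: AA467197 was higher and Sqor lower in NOD at 124 kb, and Apol7b was higher and Apol7e lower at 251 kb.

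Relatives of the leading members, in the same families and pathways, mostly did not pass the strain fit. In 11 lists of such relatives 47 genes other than members were tested. At an unadjusted p under 0.05 in edgeR stood 10 of the 47. The share of all coding genes at that unadjusted level is not given here, nor for the unadjusted counts below. Of the 47, 1 (2.13%) passed the strain fit, where 3.37% of coding genes did. That gene was Cth, the cystathionine lyase that makes hydrogen sulfide, at 1.55 CPM in NOD and 0.0972 CPM in C57BL/6J, a log2 fold change of 4.11 ± 0.70 (edgeR adjusted p = 0.0129, with 0.0589 without Rep1B and 0.0914 without Rep2B of C57BL/6J). It was higher in NOD, whereas Sqor, which oxidises sulfide, was lower. The other genes of the sulfide pathway, such as Ethe1 at 12.5 CPM in NOD and 13.3 CPM in C57BL/6J, did not pass. The 4 nectin and nectin-like genes tested had a median log2 fold change of 1.31, and the 2 genes listed with Greb1, its relative Greb1l and the receptor gene Esr1, one of 1.16, against 0.02 over all coding genes tested, and none of these 6 passed in edgeR or DESeq2, with 4 at an unadjusted p under 0.05 in edgeR. In 12 further lists, drawn up after the members' values were seen, 0 of 67 tested relatives passed in edgeR and 0 in DESeq2, with 9 at an unadjusted p under 0.05 in edgeR.

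Per kb of exon, several members were the minor form of their family even where they were high. Rab6b was at 0.0448 CPM per kb in NOD and 10.6 CPM per kb in C57BL/6J, beside Rab6a, the general Golgi form, at 18.1 CPM per kb in NOD and 17.4 CPM per kb in C57BL/6J. Inppl1 was at 3.0 CPM per kb in NOD and 0.115 CPM per kb in C57BL/6J, beside its blood-cell relative Inpp5d (SHIP1) at 19.3 CPM per kb in NOD and 20.1 CPM per kb in C57BL/6J. Neither Rab6a nor Inpp5d, the forms best known from all cells or from blood cells, passed the strain test. Mapk10 (0.206 CPM per kb in NOD and 0.012 CPM per kb in C57BL/6J) was likewise far below Mapk8 (5.57 CPM per kb in NOD and 4.58 CPM per kb in C57BL/6J).

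Other members were, by strain mean, the major form in the strain where they were high. Slc15a2 had a mean of 0.0181 CPM per kb in NOD and 7.41 CPM per kb in C57BL/6J. Slc15a4, the lysosomal carrier, was at 4.05 CPM per kb in NOD and 3.37 CPM per kb in C57BL/6J. The order in C57BL/6J did not hold in every library: in Rep1B_Rep1T Slc15a2 was at 15 CPM, under the lowest Slc15a4 library at 15.2 CPM. Prag1 had 9.88 CPM per kb in NOD and 0.599 CPM per kb in C57BL/6J, and Peak1, the related pseudokinase, 5.95 CPM per kb in NOD and 6.08 CPM per kb in C57BL/6J. Cadm4 was at 10.2 CPM per kb in NOD and 0.188 CPM per kb in C57BL/6J, whereas Cadm1 had 0.153 CPM per kb in NOD and 0.0499 CPM per kb in C57BL/6J. The order of such relatives by level per kb therefore differed between the strain means for Prag1 and Peak1 and for Slc15a2 and Slc15a4. Tns3 and Tns1 were far apart in NOD, at 0.307 and 4.75 CPM per kb, and closer in C57BL/6J, at 3.52 and 5.04 CPM per kb.

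**Figure D4:**
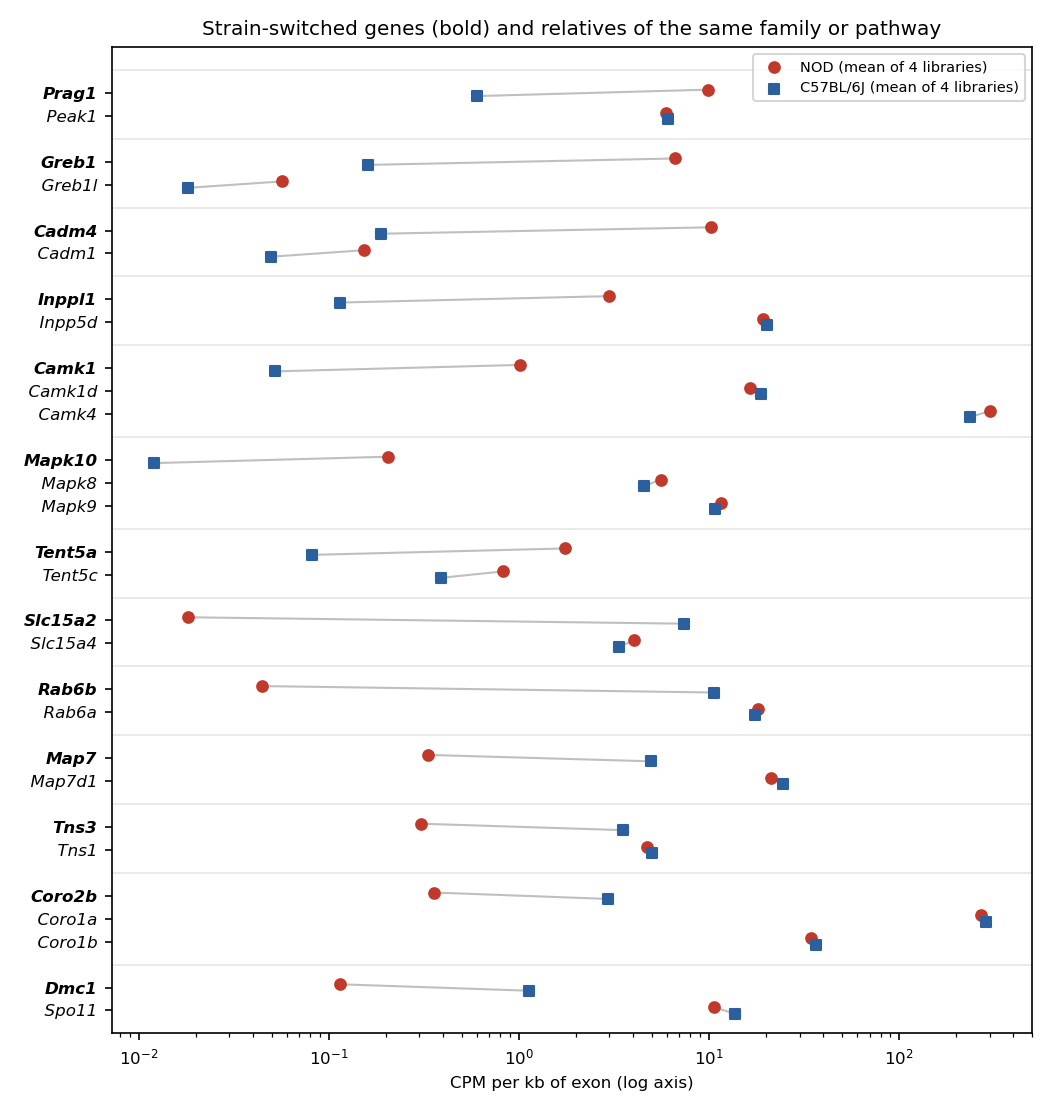
Levels of 13 strain-switched genes (bold) and of relatives in the same family or pathway, in CPM per kb of exon on a log axis, as means of 4 libraries, with NOD in red circles and C57BL/6J in blue squares joined by a line. The lines of members such as Rab6b and Slc15a2 are long, and those of Rab6a, Mapk9 and most other relatives are short.

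Features of the members that the rule did not use were read from the annotation. Their median gene length was 42.5 kb, against 24.5 kb for other coding genes with at least 2 CPM and 17.5 kb for those of 2 to 10 CPM. RefSeq promoter sequences on GRCm38.p6 matched 51 of the 61 by symbol, of which 47 started within 1000 bases of the GENCODE start. The CpG ratio, the observed number of CG pairs over that expected from the base content, had a median of 0.498 in the 250 bases before the start of these 47. It was 0.772 in 7344 other coding genes with at least 2 CPM and 0.676 in 1381 others of 2 to 10 CPM. The median was 0.472 for members higher in NOD and 0.56 for members lower in NOD. A ratio under 0.4 was found in 34% of the members' promoters, 10.6% of the others and 19.6% of the others at 2 to 10 CPM. The members' median was thus the lowest of the 3 groups, with a wide spread that included the CpG-rich promoters of Afdn (1.19) and Cadm4 (0.898).

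**Figure D5:**
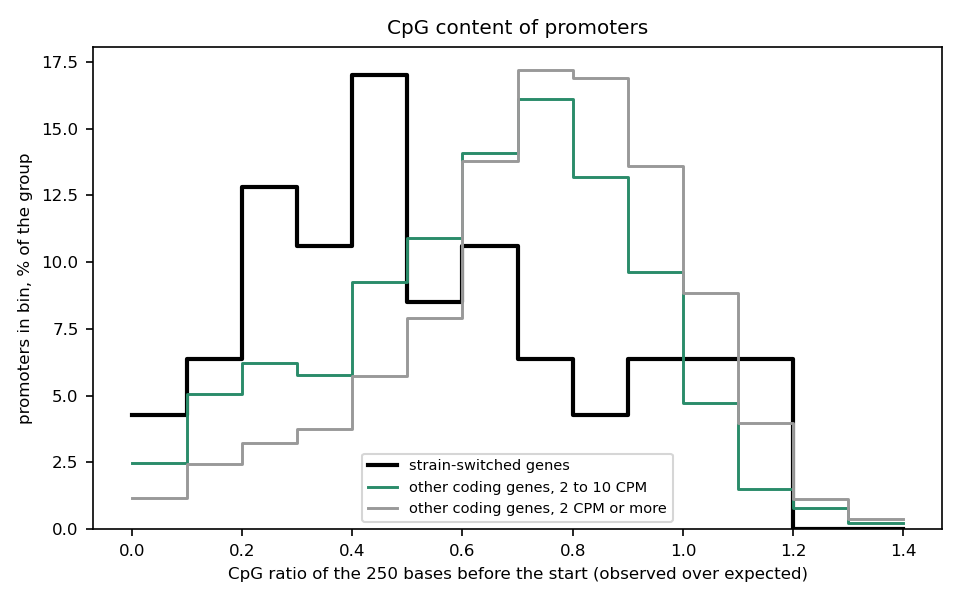
Distribution of the CpG ratio in the 250 bases before the start, as percent of promoters per bin of 0.1, for strain-switched genes (black), other coding genes of 2 to 10 CPM (green) and other coding genes of 2 CPM or more (grey). The black line has more of its weight below 0.5.

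Short motifs were searched on both strands of these windows, and no 2 matches overlapped in the promoters printed above. The GC box GGGCGG was in 40.4% of the members' promoters, in 32.7% of all 32851 RefSeq promoters of this length and in 62.7% of those of expressed coding genes. The CCAAT box was in 23.4% of the members' promoters, 33.8% of all and 37.9% of the expressed, and TATAAA in 6.38%, 12.4% and 5.34%. In the same order, the ETS motif CCGGAAG was in 6.38%, 6.91% and 16.8%. Of motifs of factors active in thymocytes, CAGCTG of E proteins was in 14.9%, 13.0% and 10.5%, TGTGGT of RUNX factors in 10.6%, 14% and 10.3%, and CTTTGA of TCF factors in 17%, 13.8% and 10.4%. TGGGAA of Ikaros was in 8.51%, 21.6% and 20%, and the cyclic AMP element TGACGTCA in 4.26%, 1.55% and 3.08%. These shares rest on 47 promoters, and a match is not a bound site.

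Some members share sequence or position with other genes in ways that bear on counting. Of the 61, 27 overlap another gene with counts, 15 of them in exons and 9 in exons of another coding gene, and the strand setting of the counting is not given in the sources used here. Exons of Camk1 overlap those of Ogg1 on the opposite strand, and Ogg1 averaged 5.99 CPM in NOD and 4.78 CPM in C57BL/6J. Ninl overlaps Nanp, which averaged 2.06 CPM in NOD and 1.14 CPM in C57BL/6J. A stretch of at least 100 bases with at least 95% identity to another gene's transcript was found for 12 members. Besides Apol7b, Apol7e and Ceacam1, the long ones were Ckb, 96.8% identical to the pseudogene Gm12892 over 1149 bases, and Afdn, 95.9% identical to Zfp160 over 999 bases. Gm12892 was listed at 0.0304 CPM in NOD and 0.0771 CPM in C57BL/6J, and Zfp160 at 32.7 CPM in NOD and 24.7 CPM in C57BL/6J.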

How the data were processed

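The authors deposited raw counts per Ensembl gene, 1 table for each of 8 libraries. Per the submitters' processing notes, STAR 2.5.0a, HTSeq 0.6.1 and GRCm38 were used; the annotation release, strand setting and filters are not given in the sources used here. GRCm38 is the C57BL/6J assembly, and how this affects counts of NOD reads was not tested. Reads that HTSeq assigned to no feature (46.56% to 59.08% in NOD, 39.98% to 53.94% in C57BL/6J) were left out.

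CPM used reads in genes. GENCODE M21 gave gene types and coordinates. The strain fit used edgeR 4.0.16 in R 4.3.3 (filterByExpr, TMM factors, robust quasi-likelihood F-test, two-sided) on 4 samples, the libraries of 1 B number summed, with 2 residual degrees of freedom. The B number fit used the 8 libraries in 4 groups of strain and B number (4 residual degrees of freedom). The fits were also run on simulated data, and the outcome of that run is not given here. DESeq2 1.42.0 was an alternative. Identity of transcripts came from blastn. Motifs were exact matches. Floors and intervals cover counting error only.

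Members, lists and roles were chosen with earlier results of these data known. Every member was named but 1, which is not reported here; values in each library were given for those of at least 10 CPM or called between B numbers, and for Apol7b, Apol7e and Jchain, added after their values were seen. Named neighbours and relatives were those that passed, or are said to be picked later. Promoters were those of the 2 most abundant members of each direction with a sequence and a start clear of other genes and of their own exons. The last condition was added later.

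The labels do not say whether equal B numbers of the strains share a batch. The deviations of Rep2B from Rep1B correlated at -0.122 between strains, and a single difference per strain cannot decide this. T libraries of 1 B number differed by more than sampling noise (chi-square per degree of freedom 2.96 to 61.2).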

Additional observations from a re-analysis of the deposited data

Results flagged for a closer look

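Single libraries stood apart from the other 3 of their strain for 8 of the 120 member and strain combinations tested with Dixon's ratio, the gap to the nearest library over the whole range. Chance alone flags about 1 in 20 groups. Alpk1 in C57BL/6J had its lowest library, Rep1B_Rep1T, at 1.24 CPM (ratio 0.915). H60b in C57BL/6J had reads in Rep2B_Rep1T only, at 0.255 CPM (ratio 1.0). Hfm1 in C57BL/6J was highest in Rep1B_Rep2T, at 5.46 CPM (ratio 0.848). Rep1B_Rep1T of C57BL/6J was also apart for Map7 at 50.4 CPM (ratio 0.846), for Mei4 at 5.1 CPM (ratio 0.838) and for Pcsk1 at 3.28 CPM (ratio 0.892), high for Map7 and low for Mei4 and Pcsk1. Matn2 in NOD was highest in Rep1B_Rep2T at 0.717 CPM (ratio 0.858), and Scara3 in C57BL/6J in Rep2B_Rep2T at 0.821 CPM (ratio 0.869). For 7 of these 8 the flagged library still lay on its own strain's side of every library of the other strain, the exception being Scara3.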

How the results depend on the processing

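The number of genes past the strain fit, 637, was 1535 with 8 libraries not summed, 1188 with no filter on low counts and 256 to 1389 with a sample left out. With DESeq2 it was 861. With the B number as a replicate block it was 513 and Impg1 was not called (edgeR adjusted p = 0.0513). The number was 768 with crossed numbers, an alternative chosen after seeing the data. In edgeR 17291 genes were tested in the main fit, 15227 not summed and 35135 unfiltered. The share of coding genes that passed is not given for these alternatives. The counts of neighbours and relatives that follow therefore cannot be placed above or below it. Neighbours that passed, 3, became 16 not summed, 7 with DESeq2, 13 unfiltered and 1 to 10 with a sample left out. Relatives that passed, 1, became 9 not summed, 4 unfiltered and 0 to 4 with a sample left out. In the lists drawn up later the 0 became 7 not summed, 2 unfiltered and 0 to 2 with a sample left out. Genes past the B number test in NOD, 1362, were 2198 unfiltered, 1097 with the T number as a replicate block and 504 to 1946 with a library left out; the block left Lypd1 and Scara3 called, and not Cdkn1a and Rps6kl1. In C57BL/6J the 39 became 628 with DESeq2, 1228 unfiltered, 7 with the T number as a replicate block and 1 to 673 with a library left out. The cause of these shifts was not tested. The 35 and 26 members became 19 and 14 at 5 CPM or more, and 88 and 54 at 4-fold or more; at 16-fold or more the 26 became 13. With a library left out 32 to 37 and 24 to 29 genes met the rule. Depth limits the low side: genes with 0 to 3 reads in C57BL/6J have only bounded folds.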
